A study of Equus caballus with 4 samples.

Results

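The genes of glucose uptake, glycolysis, pyruvate oxidation, the citric acid cycle and glycogen turnover were examined in differentiating equine satellite cells treated with β-hydroxy-β-methylbutyrate (HMB), a metabolite of leucine. The list was set by gene symbol and held 47 names, and a probe was a member when the gene name given for it by the array design was equal to one of them. Of the 47 names, 45 had a probe and 39 had a probe bright enough to be tested, out of 24998 gene names on the array and 13976 tested. The array held 86 probes for these genes, of which 80 were tested. No probe carried the names *PGAM1* or *PKM2*, the latter an older symbol of *PKM*, which had its own probes.

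Satellite cells are the muscle stem cells that fuse into myotubes, and these were isolated from horse m. semitendinosus. The HMB-treated group received 50 µM HMB for 24 h and 3 mM hydrogen peroxide (H2O2) during the last 1 h, with RNA taken on day 3 of differentiation. The control received the same H2O2 without HMB, so both groups were exposed to H2O2 and the comparison measured HMB on that background. RNA of the HMB-treated group was labelled with Cy5 and RNA of the control with Cy3, and both were hybridised together on each of 4 arrays, so each array gave 1 ratio per probe.

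The methods describe that 1 culture with the best viability and fusion was chosen, so the 4 replicates need not be 4 horses, and p-values then measure the spread between these samples. The control carried replicate number 1 in the labels of all 4 arrays, although the design names 4 control replicates. Dyes were never swapped, so a dye effect and the treatment cannot be told apart. Ratios are given as log2 of HMB-treated over control, and positive values mean higher expression in the HMB-treated group. Values after ± are SDs over the 4 arrays. In bulk RNA, fewer cells of a type and less RNA per cell cannot be told apart.

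Glycolysis splits glucose into pyruvate in the cytosol. Lactate dehydrogenase can reduce pyruvate to lactate, or the mitochondrial pyruvate dehydrogenase complex can turn it into acetyl-CoA, which the citric acid cycle oxidises, and pyruvate dehydrogenase kinases switch that complex off. Several steps have isoforms with different tissue preferences, and mature skeletal muscle favours the muscle forms of phosphofructokinase (*PFKM*), phosphoglycerate mutase (*PGAM2*), enolase (*ENO3*) and glycogen phosphorylase (*PYGM*).

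The arrays measured these genes with probes of 60 bases, and the sequences below belong to genes on which the results turn, with the probe intervals on EquCab1. The *PFKM* (chr6:65875804-65875944, plus strand), *PFKL* (chr26:2295675-2296136, minus strand) and *PFKP* (chr29:29783010-29783069, minus strand) probes are shown because the isoforms of this one enzyme moved in opposite directions, and capitals mark the longest run of bases that the *PFKL* and *PFKP* probes share, which was 14 bases, against 5 bases shared by the *PFKM* probe with either. The *PGAM2* (chr4:14917699-14917758, minus strand) and *ENO3* (chr11:48376684-48377140, minus strand) probes belong to muscle isoforms of late glycolysis. The *PDHA1* (chrX:8331418-8331917, plus strand) and *MDH1* (chr15:34602119-34602178, minus strand) probes belong to pyruvate oxidation and the malate step. The *MDH1* probe shown had a mean of -0.35 and was not called on its own, while the other *MDH1* probe was called lower (-0.42).
PFKM: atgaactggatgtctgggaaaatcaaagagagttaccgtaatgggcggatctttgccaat
PFKL: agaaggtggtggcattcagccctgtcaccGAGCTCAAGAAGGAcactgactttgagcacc
PFKP: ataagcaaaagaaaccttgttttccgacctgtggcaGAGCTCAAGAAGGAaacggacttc
PGAM2: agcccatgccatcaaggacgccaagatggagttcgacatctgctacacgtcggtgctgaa
ENO3: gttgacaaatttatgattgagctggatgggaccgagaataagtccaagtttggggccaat
PDHA1: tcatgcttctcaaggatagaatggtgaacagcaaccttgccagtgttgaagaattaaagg
MDH1: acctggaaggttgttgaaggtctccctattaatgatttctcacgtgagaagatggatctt

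A gene was called when its adjusted p in limma, with Benjamini-Hochberg adjustment over all gene names tested, was 0.05 or less and its fold change (FC) was 1.3 or more. By this rule 6 of the 39 tested genes had higher expression in the HMB-treated group (15.4%, against 12.5% of all gene names tested) and 8 had lower expression (20.5%, against 16.4%). The higher genes were *SLC2A1*, *PFKL*, *PFKP*, *ALDOC*, *ENO3* and *PKM*. The lower genes were *PFKM*, *PGAM2*, *PDHA1*, *DLAT*, *PDK3*, *IDH3B*, *MDH1* and *PHKA1*. By adjusted p in limma alone, 10 genes were higher (25.6%, against 18.2%) and 17 were lower (43.6%, against 28.1%). With treat, which tests against the FC threshold itself, *SLC2A1* was the only gene called. The median log2 ratio of the 39 genes was -0.11, beside -0.06 over all gene names tested. Across the 39 genes, the ratios of any 2 arrays correlated with r from 0.748 to 0.919, beside 0.835 to 0.911 over all gene names tested. This is a description across genes, which are not independent replicates.

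**Figure D1:**
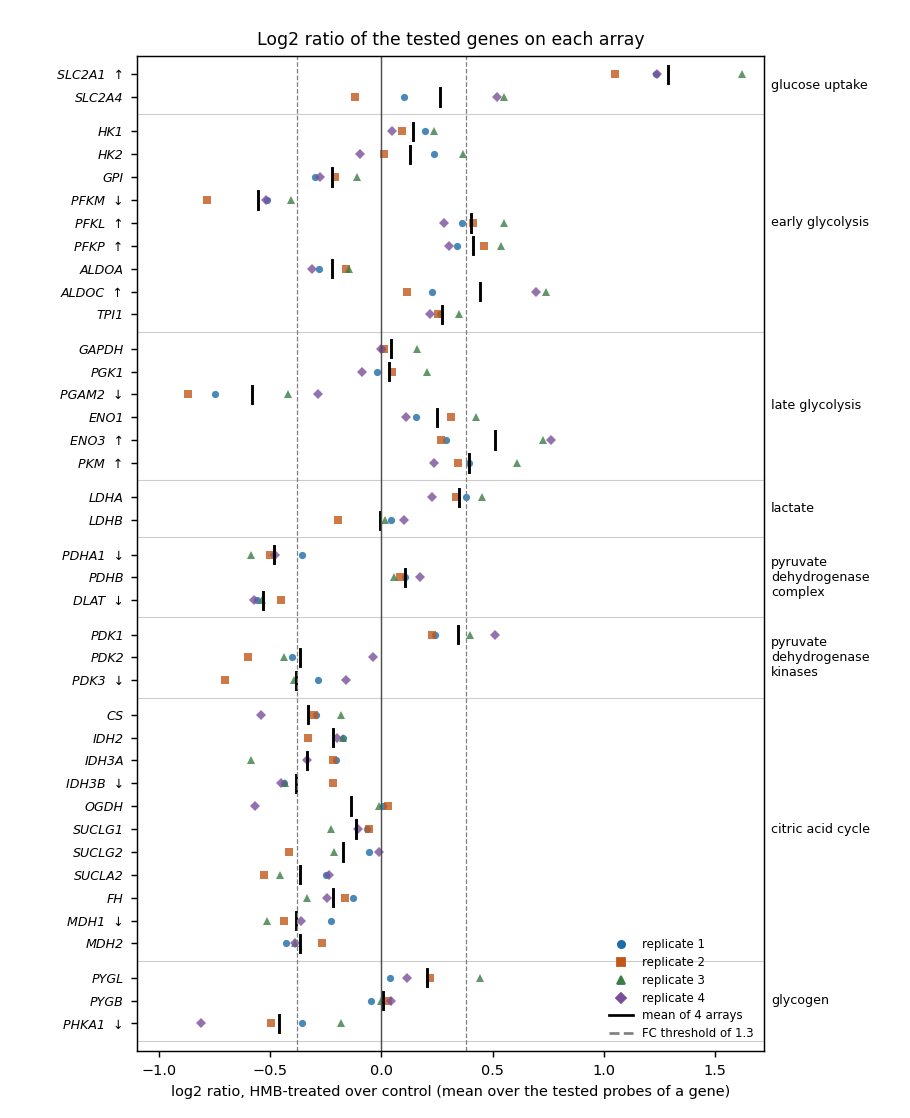
Log2 ratio of HMB-treated over control (horizontal axis) for each of the 39 tested genes (rows, grouped by step), with 1 symbol per array, a black bar at the mean of 4 arrays, dashed lines at an FC of 1.3 and arrows beside called genes. All 11 citric acid cycle means lay below 0 (with median centering *SUCLG1* and *FH* did not), and the glycolytic genes lay on both sides of it.

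The main contrast lay between glycolysis and the citric acid cycle. The median log2 ratio of the 15 tested glycolytic genes, from hexokinase to pyruvate kinase, was 0.19, 0.09, 0.35 and 0.05 on arrays 1 to 4. The median of the 11 citric acid cycle genes was -0.21, -0.27, -0.33 and -0.34 on the same arrays. The glycolytic median was thus above the cycle median on each array, by 0.40, 0.36, 0.68 and 0.38 (mean 0.45 ± 0.15 SD, n = 4). This difference was formed after the data were seen and is given without a test. It stayed between 0.38 and 0.58 under every alternative processing tried, although scaling to spike-in RNA moved all ratios down, so that early and late glycolysis then had medians of -0.35 and -0.34 beside -0.55 over all gene names. Of the 18 listed genes with a mean above 0, only *SLC2A1* and *ENO3* stayed above 0 with that scaling.

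**Figure D2:**
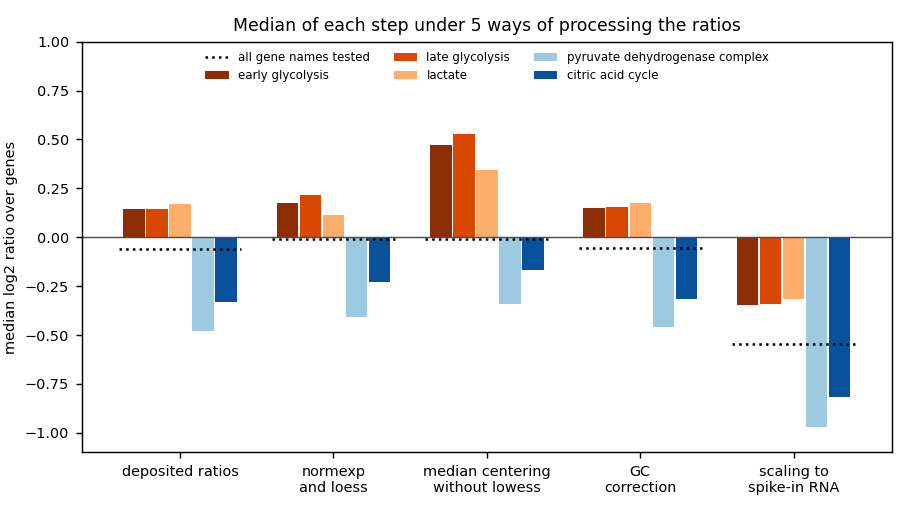
Median log2 ratio over the tested genes of early and late glycolysis, lactate, the pyruvate dehydrogenase complex and the citric acid cycle (bars, vertical axis) under 5 ways of processing, with dotted lines for the median of all gene names tested. The glycolytic bars stood above the dotted line and the citric acid cycle bars below it in each. Spike-in scaling moved bars and line down together, so it could not change this order. With it the bars of these 5 steps were all below 0, while glucose uptake, which is not drawn, had a median of 0.29.

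Glucose uptake held the largest change among the tested genes. *SLC2A1* encodes GLUT1, the glucose transporter found in most cell types, and its log2 ratios were 1.23, 1.05, 1.62 and 1.24 on arrays 1 to 4 (mean 1.29 ± 0.24 SD, n = 4, FC = 2.44, limma adjusted p = 0.000202). Its signals were low, from 58.1 to 95 in Cy3 and from 137 to 258 in Cy5 for the brighter probe. The other probe, 2747 bases away at its start, gave a mean of 1.31 beside 1.26. In Cy3 it was well above background on 2 arrays only, so it was tested through Cy5, the channel where the gene was higher. With both channels required above background, only the brighter probe remained (1.26). *SLC2A1* was called higher under every alternative, with means from 0.42 to 1.36.

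*SLC2A4* encodes GLUT4, the insulin-responsive transporter of muscle and fat, and had ratios of 0.10, -0.12, 0.55 and 0.52 (mean 0.26 ± 0.33 SD, limma adjusted p = 0.133). Arrays 3 and 4 lay above arrays 1 and 2, and the gene did not pass the test. *SLC2A3*, encoding GLUT3, was well above background on 1 array in Cy3 and 2 in Cy5 and was not tested.

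In early glycolysis the isoforms of phosphofructokinase, which commits the sugar to glycolysis, went opposite ways. *PFKM*, the muscle form, had ratios of -0.51, -0.78, -0.41 and -0.52 (mean -0.56 ± 0.16 SD, n = 4, FC = 1.47 lower, limma adjusted p = 0.00235). *PFKL*, the liver form, had 0.36, 0.41, 0.55 and 0.28 (mean 0.40 ± 0.11 SD, FC = 1.32, limma adjusted p = 0.00491), and *PFKP*, the platelet form, had 0.34, 0.46, 0.54 and 0.31 (mean 0.41 ± 0.11 SD, FC = 1.33, limma adjusted p = 0.00431). The ratios of *PFKM* were below 0 on every array and those of the other two above 0, and the means of *PFKL* and *PFKP* differed by less than their spread. With spike-in scaling the means of *PFKL* and *PFKP* were -0.09 and -0.08. Neither *PFKL* nor *PFKP* was called without array 3, *PFKL* was also not called with normexp or GC correction, and *PFKM* was not called with normexp (-0.33).

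The aldolase isoforms also had means of opposite sign, but only *ALDOC* was called. *ALDOC*, the form best known from brain, was higher on every array, with ratios of 0.23, 0.12, 0.74 and 0.69 (mean 0.44 ± 0.32 SD, FC = 1.36, limma adjusted p = 0.0265). *ALDOA*, the muscle form, had a mean of -0.22 over 5 probes whose starts lay within 4 bases of each other. It passed the test by p but not by FC. Its mean was -0.0085 with normexp, and it was called higher at 0.48 with median centering in place of lowess. *ALDOC* was no longer called without array 3, without array 4, with the methods' t-test, without the filter on dim probes or with spike-in scaling (-0.04).

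The hexokinases, which trap glucose in the cell, did not pass the test (*HK1* 0.14, *HK2* 0.13). *GPI*, the isomerase after hexokinase, was lower with a mean of -0.22, and *TPI1*, which interconverts the triose phosphates, was higher with a mean of 0.27, both by adjusted p in limma but with FC under 1.3. *PFKFB3*, which makes the activator of phosphofructokinase, was not well above background on any array in Cy3 and was so on 1 array in Cy5. It was not tested.

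In late glycolysis, *GAPDH*, widely used as a reference gene, had a mean of 0.04 over 13 probes, which ranged from -0.08 to 0.11 (limma adjusted p = 0.612). With median centering it was called higher at 0.52, and with spike-in scaling called lower at -0.44. *PGK1*, the next enzyme, had a mean of 0.04.

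*PGAM2*, the muscle phosphoglycerate mutase, had ratios of -0.75, -0.87, -0.42 and -0.29 (mean -0.58 ± 0.27 SD, n = 4, FC = 1.5 lower, limma adjusted p = 0.0066). Its Cy3 signals were 2880, 2860, 3060 and 2330, and its Cy5 signals 1720, 1570, 2290 and 1910. Arrays 1 and 2 held the lower ratios, and the call was lost with the methods' t-test, with treat and without the filter on dim probes.

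*ENO3*, the muscle enolase, went the other way from *PFKM* and *PGAM2*, with ratios of 0.29, 0.27, 0.73 and 0.76 (mean 0.51 ± 0.27 SD, n = 4, FC = 1.42, limma adjusted p = 0.0105). Arrays 3 and 4 lay above arrays 1 and 2. With spike-in scaling its mean was 0.02, and it was no longer called with that scaling, with normexp background correction and loess (0.27), with the methods' t-test or without the filter on dim probes. *ENO1*, the ubiquitous enolase, had a mean of 0.25 and passed by p but not by FC, and was called higher with normexp (0.48) and with median centering (0.98). *ENO2*, the neuronal form, was dim, with Cy3 signals from 6.7 to 19.3 and Cy5 signals from 26.7 to 43.7, above background on 2 arrays in Cy5 and none in Cy3, and was not tested. *PKM*, pyruvate kinase, was higher with ratios of 0.39, 0.34, 0.61 and 0.24 (mean 0.40 ± 0.16 SD, FC = 1.31, limma adjusted p = 0.0083), and its 2 probes lay 1 base apart. It was no longer called without array 3, with normexp, with the methods' t-test or with spike-in scaling (-0.09).

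For 15 pairs of isoforms, the difference between log2 ratios was taken within each array, and 8 pairs had both genes tested. *PFKM* minus *PFKL* was -0.88, -1.20, -0.96 and -0.80 (mean -0.96 ± 0.17 SD), and *PFKM* minus *PFKP* averaged -0.97 ± 0.19. *SLC2A4* minus *SLC2A1* averaged -1.02 ± 0.21 and *ALDOA* minus *ALDOC* -0.67 ± 0.34, but the former was -0.37 with normexp and the latter -0.057 with median centering. In 6 pairs the difference had the same sign on all 4 arrays, which gives the smallest p that an exact two-sided sign permutation test over 4 arrays allows, 0.125 (0.167 after adjustment over the 8 pairs), so this design cannot pass 0.05. *ENO3* minus *ENO1* was 0.26 ± 0.30 with array 2 below 0 (exact permutation p = 0.25) and turned to -0.21 with normexp and -0.45 with median centering, and *HK2* minus *HK1* was -0.01 ± 0.12 (exact permutation p = 0.875).

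**Figure D3:**
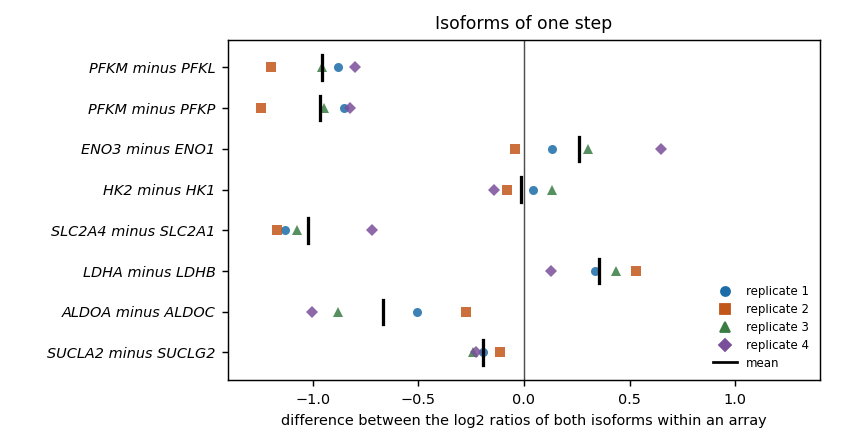
Difference between the log2 ratios of both isoforms within an array (horizontal axis) for the 8 pairs formed, with 1 symbol per array and a black bar at the mean. Both *PFKM* pairs and the GLUT4 minus GLUT1 pair lay far below 0 on every array, while the hexokinase pair lay around 0.

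The muscle isoforms were read beside markers of the cell types a muscle culture can hold. Of 12 muscle markers 9 were tested, all above background on every array in Cy3 and 8 of them in Cy5. Of these, 7 were called lower and 0 higher, with a median of -0.93 and a range from -1.63 to 0.10. The myogenic factors *MYOG* (0.03) and *MYOD1* (0.10) were not called. *MB* (-0.74), among the 7, was above background on 1 array only in Cy5. It was thus tested through Cy3, the channel where it was higher. The summed muscle marker signal was 195000 to 217000 in Cy3 and 81500 to 125000 in Cy5. Of 6 fibroblast markers 5 were tested and 4 were called higher, with a median of 0.76 and summed signals of 194000 to 223000 in Cy3 and 223000 to 340000 in Cy5. Of the leukocyte markers 2 were tested and *CD68* was called higher at 0.88, and none of the fat or endothelial markers with a probe was above background on all arrays. Of the tested isoforms taken as the muscle form in the pairs, *PFKM*, *PGAM2*, *ALDOA* and *SUCLA2* had means below 0, like most muscle markers. Of these, *ALDOA* (-0.22) and *SUCLA2* (-0.37) were not called, and *ALDOA* was called higher with median centering (0.48). *ENO3*, *SLC2A4* (0.26), *HK2* (0.13) and *LDHA* (0.35) had means above 0, and only *ENO3* was called among them. The part of cell composition in these ratios was not tested.

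Lactate dehydrogenase was represented by *LDHA*, the form that favours lactate, with ratios of 0.38, 0.34, 0.45 and 0.23 (mean 0.35 ± 0.09 SD, limma adjusted p = 0.00712). It was above 0 on every array but its FC was under 1.3, and with spike-in scaling its mean was -0.14. *LDHB*, the heart form, had a mean of -0.01 ± 0.13.

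In the pyruvate dehydrogenase complex 2 of the 3 tested genes were called lower, beside 16.4% of all gene names tested. *DLAT*, its acetyltransferase core, had ratios of -0.56, -0.45, -0.54 and -0.57 (mean -0.53 ± 0.05 SD, n = 4, FC = 1.44 lower, limma adjusted p = 0.000986). *PDHA1*, the catalytic subunit, had -0.36, -0.50, -0.59 and -0.48 (mean -0.48 ± 0.09 SD, FC = 1.4 lower, limma adjusted p = 0.00205). Their Cy3 signals exceeded their Cy5 signals on every array, from 1100 to 1510 against 806 to 1040 for *DLAT*. *PDHB*, the partner of *PDHA1* in the same enzyme, did not share the decrease, with 0.11, 0.08, 0.06 and 0.17 (mean 0.10 ± 0.05 SD, not past the test). *PDHA1* lost its call with median centering and with treat. *DLAT* was called lower under every alternative except a test against the fold threshold itself (treat).

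The kinases that inactivate the complex were divided. *PDK1* was higher with a mean of 0.34 ± 0.13, and *PDK2* was lower with -0.37 ± 0.24, both by adjusted p in limma with FC under 1.3. *PDK3* was called lower, with -0.29, -0.70, -0.39 and -0.16 (mean -0.38 ± 0.23 SD, FC = 1.31 lower, limma adjusted p = 0.02), and lost its call without array 2, without array 3, with the methods' t-test, with normexp (-0.16), with scaling between arrays and without the filter on dim probes. *PDK4*, a fasting-induced kinase, was well above background on 1 array in Cy3 and on none in Cy5 and was not tested.

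All 11 citric acid cycle genes had means below 0, beside 57.3% of all gene names tested, and 8 were lower by adjusted p in limma (72.7%, against 28.1%), although with median centering *SUCLG1* (0.09) and *FH* (0.02) lay above 0. Only *MDH1* and *IDH3B* passed the FC threshold, a share of 18.2% against 16.4%. *MDH1*, the cytosolic malate dehydrogenase counted here with the cycle, had -0.23, -0.44, -0.51 and -0.36 (mean -0.39 ± 0.12 SD, FC = 1.31 lower, limma adjusted p = 0.00637). *IDH3B*, a subunit of the NAD-dependent isocitrate dehydrogenase, had -0.44, -0.22, -0.43 and -0.45 (mean -0.38 ± 0.11 SD, FC = 1.31 lower, limma adjusted p = 0.0058). Both lay close to the threshold, and *MDH1* lost its call without array 2 or array 3, with median centering (-0.24), scaling between arrays, GC correction and its brightest probe. *IDH3B* lost its call without array 1, 3 or 4, with normexp (-0.25), median centering (-0.30) and GC correction. No cycle gene was called with GC correction or with median centering.

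The other cycle genes that passed by p were *CS*, the citrate synthase, at -0.33, *IDH2* at -0.22, *IDH3A* at -0.34, *SUCLA2*, the ATP-forming succinyl-CoA ligase subunit, at -0.37, *FH*, fumarase, at -0.22, and *MDH2*, the mitochondrial malate dehydrogenase, at -0.37. For *MDH2*, 3 of its 5 probes were called lower on their own, beside 16.4% of all probes tested. These 3 start within a few bases of each other and are not independent, and the gene itself was not called. *OGDH*, *SUCLG1* and *SUCLG2* did not pass, with -0.13, -0.11 and -0.17. For *OGDH* arrays 1 to 3 lay between -0.01 and 0.03, and array 4 was at -0.57. The cycle ratios spread over a narrow range, from -0.39 to -0.11.

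**Figure D4:**
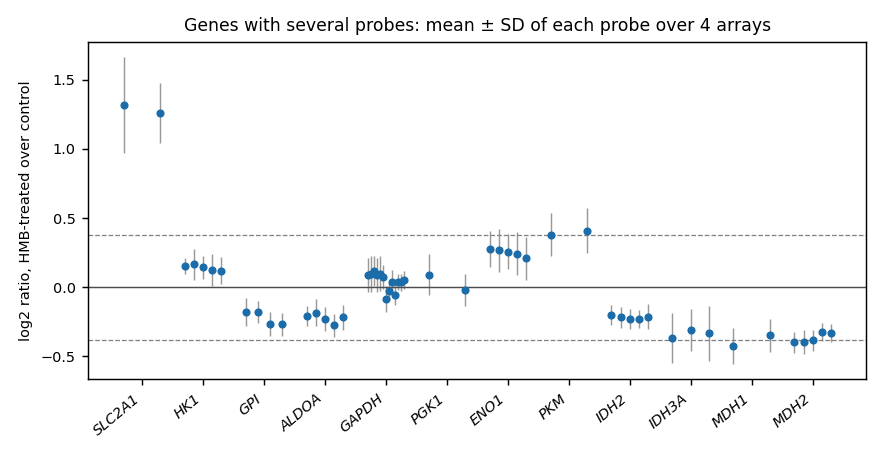
Mean log2 ratio ± SD over 4 arrays (vertical axis) of each probe for the genes with several tested probes, ordered within a gene by genomic start, with dashed lines at an FC of 1.3. Probes of 1 gene lay close together, and many start within a few bases of each other and are not independent.

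In glycogen turnover, *PHKA1*, the muscle regulatory subunit of phosphorylase kinase, was called lower with -0.36, -0.50, -0.18 and -0.81 (mean -0.46 ± 0.27 SD, FC = 1.38 lower, limma adjusted p = 0.0147) and lost the call without array 4, with the methods' t-test, with normexp (-0.21) and without the filter on dim probes. The liver and brain glycogen phosphorylases *PYGL* and *PYGB* had means of 0.20 and 0.01 and did not pass. *PYGM* was not above background on any array in either channel, and *GYS1*, glycogen synthase, was so on 1 array in Cy3, so neither was tested.

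Genes next to these steps were read from a further list of 47 names, of which 40 had a probe and 29 were tested, with 3 called higher and 6 lower (median -0.08), beside 12.5% and 16.4% of all gene names tested. The remaining subunits of the pyruvate dehydrogenase complex, *DLD* (-0.58) and *PDHX* (-0.47), were both called lower, and *DLD* was -0.51, -0.57, -0.65 and -0.60 on the 4 arrays (limma adjusted p = 0.000705). *PDP1*, the phosphatase that reactivates the complex, was called higher at 0.85 ± 0.33. *SDHA* (-0.39), the succinate dehydrogenase flavoprotein of the cycle, and *ME1* (-0.41), the cytosolic malic enzyme, were called lower. For glycogen, *PHKB* (-0.57), another phosphorylase kinase subunit, was called lower, and *UGP2*, which makes UDP-glucose, was called higher at 0.86 ± 0.12. *MYC*, a transcription factor, was called higher at 0.90 ± 0.19.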

How the data were processed

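Gene expression was measured on Agilent horse 4x44K arrays annotated on EquCab1. Per the file headers, Feature Extraction 10.10.1.1 subtracted background, applied linear and lowess normalization within each array and put surrogates in place of dim signals (the methods name another version). The deposited intensity values are the mean, background and normalized signals of each spot, and the deposited log10 values are ratios of Cy5 over Cy3. The authors' table held the same log10 ratios. Changing the base gave the log2 ratios used here.

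The 4 arrays shared 1 slide. Each held 45220 spots, none saturated, and 57.6% to 60.6% of spots in Cy3 and 55.2% to 61.8% in Cy5 were well above background. Precision was limited by the 4 arrays. Control and marked spots were left out. A probe was tested when 1 channel was well above background on all 4 arrays and at least 3 arrays had a ratio. A gene's value was the mean of its tested probes. Tests used limma 3.58.1 in R 4.3.3 (lmFit with an intercept, eBayes), adjusted over all gene names, and an exact sign permutation test for isoform pairs. The scripts were tested on simulated data. Members called, and isoforms of their enzymes, were named with values. One called gene of the neighbouring list and 1 probe sequence are not reported here. The members, lists and tests were chosen with earlier results of these data known. Alternatives covered the methods' t-test, treat, normexp (offset 50) with loess, median centering, spike-in scaling, scaling between arrays, GC content, dim probes, marked spots, the brightest probe, the authors' table and leaving out each array.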

Additional observations from a re-analysis of the deposited data

Results flagged for a closer look

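Within groups of 4 arrays, 3 of 56 results examined had 1 array far from the others, and chance alone gives about 1 in 20. For *GAPDH*, array 3 was at 0.16, and its gap to the nearest array was 0.926 of the whole range of the group. For *IDH3B*, array 2 was at -0.22 with a gap of 0.929 of the range. For *OGDH*, array 4 was at -0.57 with a gap of 0.93 of the range.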

How the results depend on the processing

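Of the 39 listed genes tested, 6 were called higher and 8 lower. The counts were 3 and 5 with the methods' t-test, 1 and 0 with treat, and 4 and 5 with normexp and loess. They were 13 and 6 with median centering, 1 and 25 with spike-in scaling, and 7 and 5 of 45 with no filter on dim probes. Of all 13976 gene names tested, 1748 were called higher and 2297 lower. Those counts were 1155 and 1598 with the t-test, 827 and 710 with treat, and 1029 and 771 with normexp. They were 2162 and 2154 of 13975 with median centering, 651 and 9684 with spike-in scaling, and 1659 and 2580 of 24998 without the filter. Without 1 array the higher count of the listed genes ran from 2 to 8 and the lower count from 6 to 9. Over all 13976 gene names these counts ran from 1547 to 1771 and from 2154 to 2310. Without array 3, 2 listed genes remained higher (*ENO3* and *SLC2A1*). Of the 80 probes tested, 8 were called higher and 11 lower, beside 16.4% of all 24670 probes tested called lower. For these 80 probes the t-test gave 5 higher, treat 2 and 0, and median centering 30 and 6. Spike-in scaling gave 2 and 55, and leaving out 1 array 3 to 10 higher. Many of these probes start within a few bases of each other, so their counts are not counts of independent results. Of all gene names called, 43.2% were higher, against 53.8% with treat, 57.2% with normexp, 50.1% with median centering and 6.3% with spike-in scaling. The median of the listed genes (-0.11) was -0.033 with normexp, 0.093 with median centering, -0.60 with spike-in scaling, -0.0078 without the filter, and -0.13 to -0.044 without 1 array.

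With spike-in scaling, which moved the median of all gene names from -0.06 to -0.55, the medians turned to -0.35 for early glycolysis, -0.34 for late glycolysis, -0.32 for lactate and -0.48 for glycogen. Also below 0 then were *SLC2A4* (-0.23), *HK1* (-0.35), *HK2* (-0.36), *PFKL* (-0.086), *PFKP* (-0.077), *ALDOC* (-0.044), *TPI1* (-0.22), *GAPDH* (-0.44), *PGK1* (-0.45), *ENO1* (-0.24), *PKM* (-0.093), *LDHA* (-0.14), *PDHB* (-0.38), *PDK1* (-0.14), *PYGL* (-0.28) and *PYGB* (-0.48). With median centering *GPI* (0.011), *ALDOA* (0.48), *LDHB* (0.14), *SUCLG1* (0.093) and *FH* (0.017) turned above 0. *LDHB* was 0.0042 with GC correction and *PGK1* -0.019 by its brightest probe. *ENO3* minus *ENO1* was -0.21 with normexp and -0.45 with median centering. Without 1 array, *PGK1* ran from -0.021 to 0.077, *LDHB* from -0.044 to 0.054, *OGDH* from -0.19 to 0.0096, *PYGB* from -0.0074 to 0.023, and *HK2* minus *HK1* from -0.060 to 0.031. Calls were gained by *SLC2A4* (0.39), *PDK1* (0.38) and *MDH2* (-0.40) without array 2, by *LDHA* (0.39) and *PDK2* (-0.48) without array 4, by *IDH3A* (-0.38) without array 1, by *SUCLA2* without array 1 (-0.41) or array 4 (-0.41), and by *CS* (-0.38) without array 3. Calls were also gained by *ENO1* and *MDH2* with normexp, and by *ALDOA*, *ENO1*, *GAPDH*, *LDHA*, *PDK1*, *PGK1* and *TPI1* (higher) and *PDK2* (lower) with median centering. The causes were not tested. The median signal percentile among tested probes was 87.2 for glycolysis and 70 for the cycle. No paired analysis was possible because, beyond the ratios within each array, which already pair both groups, there was nothing left to block on.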
